A study of Homo sapiens with 90 samples.

Results

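The effect of MEK inhibition in the presence of THZ1 was examined in A549 cells, an established human lung adenocarcinoma line. The comparison rested on 6 of the 90 RNA-seq libraries of the series, chosen by their labels and not by any measured value: 3 libraries of cells given both 150 nM THZ1 and 200 nM trametinib for 48 h (the combination) and 3 of cells given 150 nM THZ1 alone for 48 h. Trametinib (GSK1120212) is an allosteric inhibitor of the kinases MEK1 and MEK2. THZ1 is a covalent inhibitor of CDK7, a kinase of the general transcription machinery, and also acts on CDK12 and CDK13. The same drug without THZ1 was read from 3 libraries given 200 nM trametinib for 48 h and 3 given the vehicle, 0.1% DMSO, for 48 h. These 6 libraries shared none with the combination and THZ1 libraries, so the change under trametinib could be set side by side with and without THZ1, and the difference between the changes tested. A further 3 libraries, given trametinib for 7 days, entered only the estimate of the spread and the check of replicate numbers. All cells were grown in RPMI with 10% fetal bovine serum. Both groups of the main comparison held THZ1, and the 15 libraries came from this 1 cell line. Nothing in the labels tells whether the libraries of a group are separate cultures, so p-values measure only the spread between these libraries, which may be technical.

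MEK1 and MEK2 phosphorylate the kinases ERK1 and ERK2, which carry signals from receptor tyrosine kinases and from RAS to the nucleus. ERK activates ETS-family and AP-1 transcription factors and immediate-early genes, and it induces its own inhibitors, the DUSP phosphatases and the Sprouty and SPRED proteins, whose transcripts serve as a readout of the pathway. In lung cancer cells with an active RAS pathway this output drives cyclin D1 and entry into the cell cycle. CDK7 phosphorylates RNA polymerase II at initiation and activates the cell cycle CDKs, and short-lived transcripts are among the first to fall when it is blocked.

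Values are in CPM, a gene's share of the counts of its library on a fixed scale, computed from the authors' expected counts with TMM scaling, and triplets are given in library order: THZ1 libraries 1, 2 and 4, and combination libraries 1, 2 and 3. CPM are shares of each library. With no added standard in use here, a change in total RNA per cell cannot be seen, and fewer cells expressing a gene and less RNA per cell cannot be told apart. The THZ1 libraries held 10804901, 10971215 and 11059191 counts and the combination libraries 10742514, 10279117 and 11203295. All 15 libraries correlated best with their own group. Combination library 1 stood apart from the other 2 for MEK-dependent and immediate-early genes, most of which were higher in it. Some of the results that it affects are given with and without it, and the others with all libraries only. Of 12 general epithelial marker genes, 9 had a mean of at least 1 CPM in each group and GRHL2 was at 0 with THZ1, with a summed level of 16200 to 16400 CPM in the THZ1 libraries and 18300 to 18600 CPM in the combination libraries. Of 20 lung epithelial markers, 6 were at 0 in both groups, among them the surfactant gene SFTPC and the club cell gene SCGB1A1, and NKX2-1 was too low to be tested. Blood cell markers summed to at most 2.11 CPM with THZ1 and 6.11 CPM with the combination, most of it LYZ.

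Trametinib still changed most of the measured transcriptome when THZ1 was present. Of 14810 genes tested, 10516 (71.0%) changed at an edgeR quasi-likelihood adjusted p below 0.05: 5187 (35.0%) were higher with the combination than with THZ1 alone and 5329 (36.0%) were lower. At least 2-fold changes were called for 2277 genes upward (15.4%) and 1615 downward (10.9%). Without THZ1, trametinib changed 10981 genes (74.1%), with 36.8% of all genes higher and 37.4% lower, 2604 of them at least 2-fold up (17.6%) and 1918 at least 2-fold down (13.0%). The median log2 fold change over all genes was 0.012 with THZ1 and 0.002 without it. THZ1 alone changed 6887 genes (46.5%) against DMSO, 264 of them at least 2-fold up (1.78%) and 576 at least 2-fold down (3.89%). The combination against DMSO changed 10702 genes (72.3%), with 35.6% of all genes higher and 36.6% lower. The THZ1 and combination libraries did not overlap for 10839 of the 14810 genes (73.2%). With shares this large, a call or a lack of overlap by itself says little about a gene. The size of the change and its difference from the change without THZ1 carry the description. Counts of listed genes are to be read against the 35.0% of all genes that rose and the 36.0% that fell.

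The responses with and without THZ1 largely ran in the same direction. Over the 14810 genes the log2 fold changes had a Pearson r of 0.864 and a Spearman rho of 0.865, as a description across genes that are not independent of each other. Of 9091 genes called in both, 8831 (97.1%) had the same sign. Of the 2604 genes that trametinib raised at least 2-fold without THZ1, 2273 (87.3%) also rose with THZ1, 1803 (69.2%) of them at least 2-fold, 8 fell and 323 were not called. Of the 1918 that fell at least 2-fold, 1731 (90.3%) also fell with THZ1, 1308 (68.2%) at least 2-fold, 11 rose and 176 were not called. Their median log2 fold changes were 1.70 without and 1.44 with THZ1 for the raised genes, and -1.51 and -1.27 for the lowered ones. Those genes were picked on the libraries without THZ1, so part of the smaller size is set by the choice. In the opposite reading, 2076 (91.2%) of the 2277 genes raised at least 2-fold with THZ1 also rose without it, as did 1536 (95.1%) of the 1615 lowered ones in their direction.

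The difference between the responses was called for 4449 genes (30.0%), in the positive direction for 2262 (15.3%) and in the negative for 2187 (14.8%). Here a positive difference means that the log2 fold change under trametinib was more positive with THZ1 than without it. THZ1 alone against DMSO shares the THZ1 libraries with the combination against THZ1, where they enter with the opposite sign. The difference also holds the THZ1 and DMSO libraries with the opposite sign. Scatter in the shared libraries moves these values in opposite directions, so opposite signs among them are not independent results. It reached at least 2-fold for 337 genes (2.28%) upward and 291 (1.96%) downward. Opposite changes of at least 2-fold were called for only 5 genes, named here after their values were seen. SESN2, a stress-induced regulator of mTORC1, was at 30.1, 27.8 and 29.7 CPM with THZ1 and 63.8, 60.1 and 60.9 CPM with the combination (log2 fold change 1.08), whereas trametinib alone lowered it from a mean of 84.9 to 35.1 CPM (-1.28). ADM2, ARPC4-TTLL3 and a gene ID without a symbol showed the same reversal, and the long noncoding RNA LINC00707 the opposite one, with log2 fold changes of -1.05 with and 1.64 without THZ1.

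**Figure D1:**
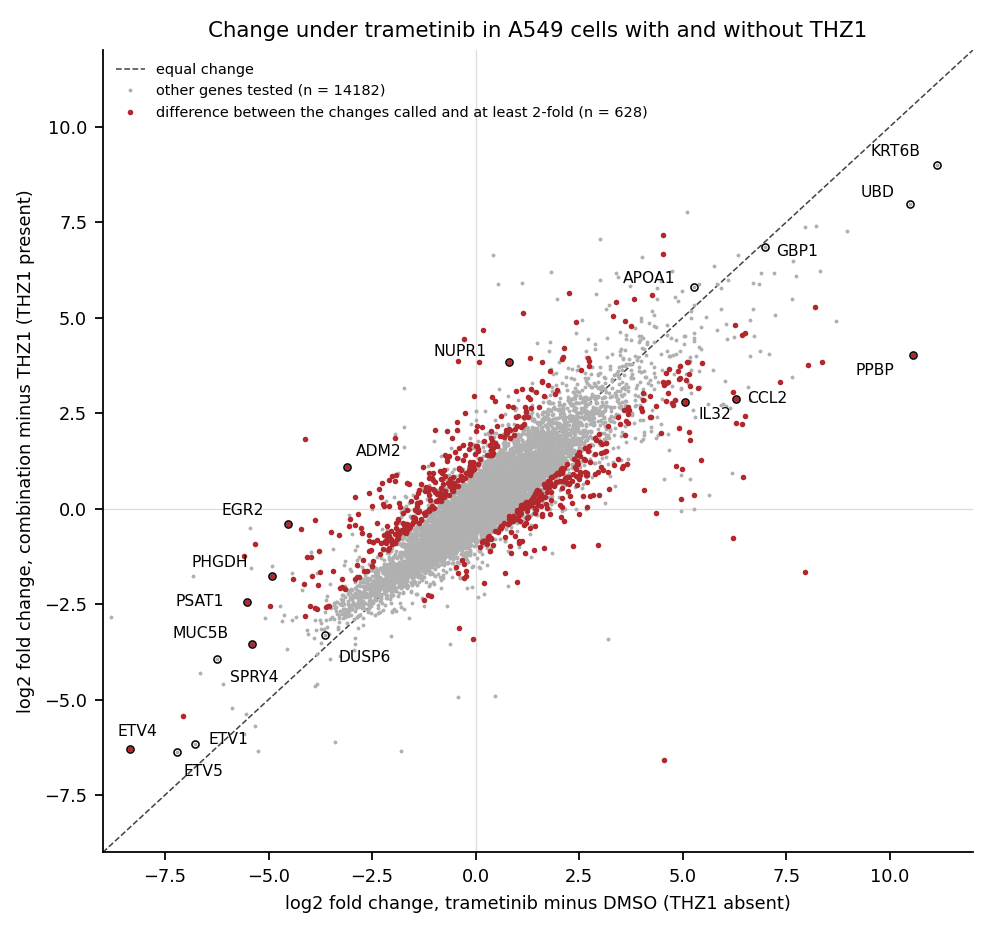
Log2 fold change under trametinib without THZ1 (x axis) against the log2 fold change under trametinib with THZ1 (y axis), one point per gene for 14810 genes. The 628 red points are genes whose changes differed by at least 2-fold with a called difference (337 above and 291 below the diagonal), and most points lie near the diagonal (r = 0.864).

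Transcripts of the ERK feedback loop and of ERK-driven transcription factors fell with trametinib although THZ1 was present. Of 14 feedback inhibitor genes, 9 fell and 2 rose, with a median log2 fold change of -1.01 against -1.50 without THZ1. Of 27 output genes of the pathway, 13 fell and 6 rose, with a median of -0.62 against -0.62 without THZ1. For comparison, the share of all genes that fell was 36.0%.

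The PEA3 group of ETS factors, which are direct readouts of ERK activity, fell the most of the named genes. ETV5 was at 43.2, 52.3 and 49.4 CPM with THZ1 and 0.819, 0.468 and 0.431 CPM with the combination, a log2 fold change of -6.37 (SE 0.15; edgeR adjusted p = 1.21e-18). ETV4 went from 50.3, 48.6 and 52.3 CPM to 1.00, 0.468 and 0.431 CPM, a log2 fold change of -6.29 (SE 0.16; edgeR adjusted p = 7.48e-18). ETV1 went from 17.1, 18.4 and 18.5 CPM to 0.0910, 0.187 and 0.431 CPM, a log2 fold change of -6.16 (SE 0.26; edgeR adjusted p = 1.15e-14). Every combination library was below every THZ1 library by more than 15-fold for these factors, and combination library 1 was the lowest for ETV1 and the highest for ETV4 and ETV5. Without THZ1 the means fell from 65.8 to 0.432 CPM for ETV5, from 73.3 to 0.222 for ETV4 and from 18.1 to 0.159 for ETV1. The change in ETV4 was smaller with THZ1, by 2.04 (SE 0.57; edgeR adjusted p = 0.00966), while the differences for ETV5 and ETV1 did not pass the threshold. The ETV4 difference rests on 7 counts over the trametinib libraries and 21 over the combination libraries. Without combination library 1 the log2 fold change of ETV4 with THZ1 was -6.77.

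Among the feedback inhibitors, DUSP6, the ERK phosphatase, was at 17.4, 9.80 and 11.8 CPM with THZ1 and 2.82, 0.468 and 0.603 CPM with the combination, a log2 fold change of -3.32 (SE 0.40; edgeR adjusted p = 2.18e-07). SPRY4, an inhibitor upstream of RAF, was at 17.4, 14.9 and 14.2 CPM and 2.55, 0.375 and 0.0861 CPM, a log2 fold change of -3.95 (SE 0.36; edgeR adjusted p = 4.29e-09). The groups did not overlap, but combination library 1 was 4.68 times the next highest combination library for DUSP6 and 6.80 times for SPRY4. Leaving it out gave log2 fold changes of -4.55 and -6.03. DUSP4, a nuclear ERK phosphatase, showed the same library pattern, at 214, 181 and 184 CPM with THZ1 and 123, 47.3 and 53.1 CPM with the combination, a log2 fold change of -1.37 (SE 0.30; edgeR adjusted p = 3.30e-04), or -1.93 without combination library 1. SPRY2 was at 12, 11.5 and 10.6 CPM and 12.1, 3.93 and 3.79 CPM, so that combination library 1 overlapped the THZ1 libraries, and its call (log2 fold change -0.79, edgeR adjusted p = 0.0335) was lost without THZ1 library 1, at an adjusted p of 0.0818. Without combination library 1 the log2 fold change of SPRY2 was -1.55 (edgeR adjusted p = 3.41e-05). The SPRED genes, which hold RAS inactive through neurofibromin, had no such spread. SPRED1 was at 39.9, 44.7 and 40.0 CPM with THZ1 and 8.19, 8.05 and 9.30 CPM with the combination, and SPRED2 fell likewise by 2.41 on the log2 scale. The low-level members DUSP9 and SPRED3 rose, both at under 3 CPM in every THZ1 and combination library. None of the 14 feedback genes except IER3 differed in its response from that without THZ1 at the threshold: IER3 fell with THZ1 (-0.50) and rose without it (0.58).

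CCND1, which encodes cyclin D1, was at 437, 437 and 426 CPM with THZ1 and 109.7, 107 and 111 CPM with the combination, a log2 fold change of -1.99 (SE 0.06; edgeR adjusted p = 1.09e-16). Its combination libraries lay within 4 CPM of each other, combination library 1 included. The means without THZ1 were 334 CPM in DMSO and 76.2 CPM with trametinib. FOSL1, an AP-1 subunit stabilised by ERK, was at 92.1, 66.6 and 62.2 CPM with THZ1 and 37.9, 12.2 and 12.2 CPM with the combination (log2 fold change -1.83, or -2.58 without combination library 1). PHLDA1 was at 164, 125 and 132 and 67.8, 27.4 and 24.7 CPM (log2 fold change -1.81, or -2.42). MYC, the growth-promoting transcription factor, was at 216, 213 and 221 and 134, 81.8 and 81.4 CPM (log2 fold change -1.13, or -1.40). For FOSL1, PHLDA1 and MYC the groups did not overlap, and combination library 1 was in each case the highest of its group. HMGA2, a chromatin protein of undifferentiated cells, fell from a mean of 70.8 to 12.3 CPM and EPHA2, an ephrin receptor, from 271 to 70.2 CPM. TERT, the catalytic subunit of telomerase, had 99 counts over the THZ1 libraries and 2 over the combination libraries, a 49.7-fold difference with a 95% exact interval of 13.4 to 416 that covers counting error only.

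Without combination library 1, the median of the feedback inhibitors was -1.67 with 10 genes fallen and 2 risen, and that of the output genes -1.06 with 15 fallen and 6 risen. The falls called only then were ERRFI1 (log2 fold change -0.20, edgeR adjusted p = 0.0209), EREG (-0.77, 0.00701) and MAFF (-1.60, 8.38e-04). With all libraries their adjusted p were 0.530, 0.240 and 0.184. Without THZ1 library 1, which was itself the highest THZ1 library for DUSP6, FOSL1 and PHLDA1, the medians were -0.79 and -0.16. Of 8973 called genes with a mean of at least 5 CPM in the THZ1 or the combination group, combination library 1 was the library of its group nearest to the THZ1 mean for 3993 (44.5%), library 2 for 2405 (26.8%) and library 3 for 2575 (28.7%).

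**Figure D2:**
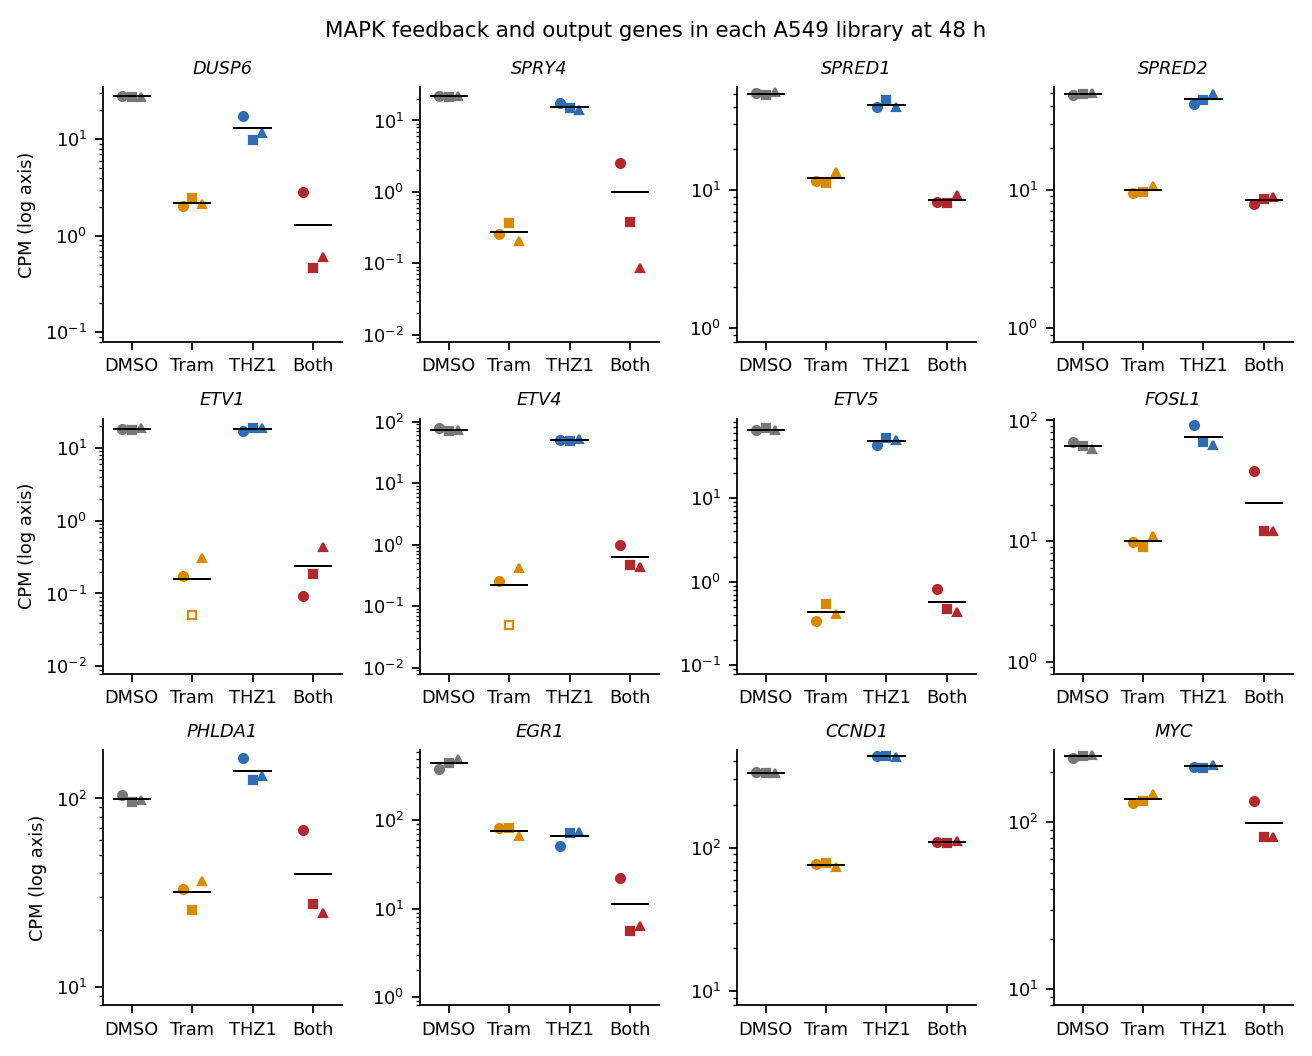
Level in CPM (log axis) of 12 pathway genes in the 3 libraries each of DMSO, trametinib, THZ1 and the combination, with circle, square and triangle for the libraries in number order, a line for the mean and open symbols for 0 counts drawn at 0.05 CPM. The combination libraries lie below the THZ1 libraries for DUSP6, SPRY4, ETV4 and ETV5, and the circle of combination library 1 lies above the other 2 for DUSP6, SPRY4, FOSL1, EGR1, PHLDA1 and MYC.

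The kinases and adaptors of the cascade itself moved little and mostly upward: of 22 genes, 13 rose and 5 fell, with a median log2 fold change of 0.14. MAPK3, which encodes ERK1, rose from a mean of 37.9 to 95.9 CPM. The rise without THZ1 was 1.40 on the log2 scale, against 1.34 with it. Of the targets of trametinib, MAP2K1 was at 111, 104 and 103 CPM with THZ1 and 67.9, 69.9 and 70.3 CPM with the combination (log2 fold change -0.61). MAP2K2 was at 122, 128 and 126 CPM and 162, 155 and 155 CPM (log2 fold change 0.33). The targets of THZ1 changed by less than 2-fold: CDK7 was at 24.4, 26.0 and 24.7 CPM with THZ1 and 31.7, 35.9 and 33.2 CPM with the combination (log2 fold change 0.43), CDK13 had a log2 fold change of 0.28 and CDK12 fell by 0.67 on the log2 scale. Of 23 genes for transcription kinases and elongation factors, 9 rose and 13 fell, none by 2-fold.

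Immediate-early genes, which THZ1 alone had lowered, split into genes that trametinib lowered further and genes that it raised. Of 23 tested, THZ1 alone lowered 15 and raised 3, where over all genes it lowered 21.5% and raised 25.0%. Trametinib added to THZ1 lowered 6 and raised 11, where over all genes it lowered 36.0% and raised 35.0%. The lowered share of the list was thus below that of all genes. EGR1, a zinc-finger factor induced by ERK through serum response factor, was at 50.8, 72.2 and 74.6 CPM with THZ1 and 22.3, 5.53 and 6.29 CPM with the combination, a log2 fold change of -2.54 (SE 0.56; edgeR adjusted p = 4.37e-04), or -3.47 without combination library 1. Its means were 443 CPM in DMSO and 76.6 CPM with trametinib alone, so the combination gave the lowest level of the 4 arms. FOS, the AP-1 subunit, followed the same order, at a mean of 349 CPM in DMSO, 158 with trametinib, 149 with THZ1 and 52.9 with the combination. JUN, the partner of FOS, rose instead, from 53.3, 56.5 and 55.1 CPM with THZ1 to 80.1, 212 and 199 CPM with the combination (log2 fold change 1.57), and here combination library 1 was the lowest. ATF3 rose from a mean of 30.7 to 83.2 CPM and KLF6 from 69.0 to 157 CPM. EGR2 was at 0.550, 0.726 and 0.979 CPM with THZ1 and 0.728, 0.375 and 0.603 CPM with the combination and was not called, while trametinib alone lowered it from a mean of 6.69 to 0.279 CPM. That gave a difference of 4.14 (SE 0.60; edgeR adjusted p = 2.27e-05) between the responses. The median of the list was 0.41 with all libraries and 0.15 without combination library 1.

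The promoter of EGR1 is printed because serum response factor binds CArG boxes there. It comes from RefSeq (GRCh38.p14, chr5:138465309-138465478, plus strand) and covers the 170 bases before the annotated start, with matches to the CArG box in capitals, 105 and 83 bases before the start.
EGR1: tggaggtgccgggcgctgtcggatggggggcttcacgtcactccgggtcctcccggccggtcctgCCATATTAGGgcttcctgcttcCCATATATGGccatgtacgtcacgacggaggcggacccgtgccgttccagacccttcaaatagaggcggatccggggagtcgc
A CArG box on either strand of the 250 bases before the start was found in 1.14% of 27303 promoters and in 0.959% of the 10843 tested genes with a promoter in the table. The count table was made on hg19 and symbols linked the tables. Such a match is a run of letters and not a measured binding site. An ETS motif (CCGGAAG) was found in 0 of 10 feedback and 0 of 17 output promoters, against 15.4% of tested genes. It was in 5.58% of genes raised and 17.9% of genes lowered at least 2-fold. An AP-1 motif (TGANTCA) was found in 1 of 10 and 2 of 17, against 3.97% of tested genes. It was in 5.51% of the raised and 3.06% of the lowered genes.

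Genes of DNA replication, mitosis and homologous recombination fell without exception among those tested. All 30 replication genes fell at least 2-fold, with a median log2 fold change of -2.59. All 26 mitosis genes fell at least 2-fold, with a median of -2.31. All 19 genes of homologous recombination and the Fanconi pathway fell, 16 of them at least 2-fold, with a median of -2.22. The same genes fell with trametinib alone, with medians of -2.94, -2.92 and -2.81, and the difference was called in the positive direction for 19, 22 and 10 of them and in the negative for none, against 15.3% positive over all genes.

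CDC25A, the phosphatase that activates CDK2 at the start of S phase, was at 41.2, 39.1 and 41.7 CPM with THZ1 and 2.37, 4.31 and 3.96 CPM with the combination, a log2 fold change of -3.52 (SE 0.14; edgeR adjusted p = 3.40e-15). MCM10, a replication initiation factor, was at 50.5, 53.2 and 54.3 CPM and 5.82, 4.78 and 4.56 CPM, a log2 fold change of -3.38 (SE 0.11; edgeR adjusted p = 1.77e-16). The groups did not overlap for either gene, and the combination libraries lay at or below 5.82 CPM. PRIM1, the small subunit of primase, fell from a mean of 31.7 to 3.23 CPM and RRM2, a subunit of ribonucleotide reductase, from 246 to 25.3 CPM. Of mitotic genes, AURKB, a kinase of the chromosomal passenger complex, was at 63.5, 62.4 and 62.3 CPM with THZ1 and 9.37, 6.93 and 7.41 CPM with the combination, and PLK1, a kinase that drives mitotic entry, at 166, 169 and 169 and 28.3, 27.9 and 24.8 CPM. FANCB, a subunit of the Fanconi core complex, was at 5.50, 6.90 and 6.68 CPM with THZ1 and 0.455, 0.187 and 1.12 CPM with the combination, and EXO1, a nuclease that resects DNA ends, fell from a mean of 114 to 12.7 CPM.

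The mean level was higher with the combination than with trametinib alone for 29 of the 30 replication genes, 26 of the 26 mitosis genes and 18 of the 19 recombination genes. TOP2A, the topoisomerase of dividing cells, was at a mean of 749 CPM in DMSO, 77.8 with trametinib, 688 with THZ1 and 122 with the combination, and its response differed by 0.76 (SE 0.06; edgeR adjusted p = 1.03e-08). NDC80, a kinetochore protein, had the means 16.7, 1.87, 19.1 and 4.42 CPM in the same order. Without trametinib, THZ1 itself raised 22 of the 26 mitosis genes and lowered 1, all by less than 2-fold. Over all genes it raised 25.0% and lowered 21.5%. Of 14 tested G1 genes, 9 fell and 4 rose, against 36.0% and 35.0% of all genes. CDK4, the partner of cyclin D1, fell by 1.2 on the log2 scale, RBL1, a pocket protein, by 2.07 and CDK2 by 1.67. The CDK inhibitors CDKN1A (0.34) and CDKN1B (0.37) rose by less than 2-fold.

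Genes of ribosome production fell together with the cell cycle genes. All 20 tested genes of ribosome biogenesis fell, 18 at least 2-fold, with a median log2 fold change of -1.54 against -1.66 without THZ1. NOP16, a nucleolar protein, was at 50.7, 47.7 and 45.0 CPM with THZ1 and 12.5, 12.5 and 11.2 CPM with the combination, a log2 fold change of -1.99 (SE 0.09; edgeR adjusted p = 6.54e-14). FBL, the methyltransferase fibrillarin, was at 240.2, 253 and 248 CPM and 67.8, 64.0 and 63.1 CPM, with means of 259 in DMSO and 70.4 with trametinib alone. The combination libraries were below every THZ1 library for both genes. Of 29 ribosomal protein genes 28 fell, none by 2-fold, with a median of -0.52. THZ1 alone had also lowered 28 of these 29, with a median of -0.37, where over all genes it lowered 21.5%. RPL10 was the 1 not called in the response to trametinib.

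Interferon-stimulated and antigen presentation genes rose. Of 24 tested genes of the interferon response, 18 rose, 17 of them at least 2-fold, and 2 fell, with a median log2 fold change of 1.56 against 1.92 without THZ1. Of 14 genes of HLA class I presentation, 13 rose, 11 at least 2-fold, and 1 fell, with a median of 1.23 against 1.64. The share of all genes raised at least 2-fold was 15.4%. Most of these genes start from low levels, which limits the precision of their fold changes. HLA and GBP family members have near-identical copies whose reads RSEM divides by estimate, so values of single members are uncertain.

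Promoters of 5 raised genes are printed to show the interferon-stimulated response element, a site bound by IRF factors. Each covers the 170 bases before the annotated start, from RefSeq on GRCh38.p14, 5′ to 3′ on the gene's strand, with matches to GAAANNGAAA on either strand in capitals.
GBP1: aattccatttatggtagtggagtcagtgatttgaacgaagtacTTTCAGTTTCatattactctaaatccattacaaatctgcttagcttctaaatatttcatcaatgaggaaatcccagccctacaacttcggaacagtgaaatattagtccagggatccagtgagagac
IFI6: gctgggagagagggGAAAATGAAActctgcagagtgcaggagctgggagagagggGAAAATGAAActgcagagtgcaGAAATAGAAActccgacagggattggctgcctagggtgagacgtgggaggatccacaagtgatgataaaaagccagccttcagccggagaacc
IFIT3: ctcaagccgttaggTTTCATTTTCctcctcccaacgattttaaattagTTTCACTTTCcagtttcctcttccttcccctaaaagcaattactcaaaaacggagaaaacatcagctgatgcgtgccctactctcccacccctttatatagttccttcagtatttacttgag
ISG15: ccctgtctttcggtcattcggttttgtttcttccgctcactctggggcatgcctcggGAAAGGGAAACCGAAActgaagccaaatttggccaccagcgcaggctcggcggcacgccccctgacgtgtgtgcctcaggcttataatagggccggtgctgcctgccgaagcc
TAP1: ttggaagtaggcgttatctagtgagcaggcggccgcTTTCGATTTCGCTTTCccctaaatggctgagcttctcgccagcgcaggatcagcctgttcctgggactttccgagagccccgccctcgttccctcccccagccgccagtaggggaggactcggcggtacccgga
They lie at chr1:89065209-89065378 (GBP1, minus strand), chr1:27672193-27672362 (IFI6, minus), chr10:89327827-89327996 (IFIT3, plus), chr1:1013327-1013496 (ISG15, plus) and chr6:32853705-32853874 (TAP1, minus). The match nearest to the start begins 127 bases before it in GBP1, 93 in IFI6, 122 in IFIT3, 107 in ISG15 and 128 in TAP1. In ISG15 and TAP1 a pair of matches overlaps. In the 250 bases before the start, the motif was found in 12 of 19 interferon genes (63.2%) and 6 of 11 class I genes (54.5%) with a promoter in the table, against 2.29% of the 10843 tested genes that had one and 3.07% of all 27303 promoters. Both lists hold genes picked for the interferon response or class I presentation, so these high shares can follow from the choice of list. The list shares therefore say nothing about the response to trametinib. Among genes raised at least 2-fold the share was 3.91% and among those lowered at least 2-fold 1.73%. The lists also hold genes that fell, among them OAS3 and TAP2, whose promoters are not printed here.

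GBP1, an interferon-induced GTPase, was at 0.0917, 0.272 and 0.356 CPM with THZ1 and 29.1, 29.4 and 28.8 CPM with the combination, a log2 fold change of 6.84 (SE 0.24; edgeR adjusted p = 4.77e-16), close to the 6.98 without THZ1. UBD, a ubiquitin-like modifier, was at 0.275, 0.272 and 0 CPM and 40.6, 51.9 and 54.3 CPM, a log2 fold change of 7.99 (SE 0.24; edgeR adjusted p = 6.73e-17). GBP2 was at 5.41, 5.17 and 6.14 CPM and 86.9, 82.4 and 95.6 CPM, a log2 fold change of 3.98 (SE 0.08; edgeR adjusted p = 3.86e-19). For these genes the THZ1 libraries were all lower than every combination library, and GBP1 and UBD rest on 8 and 6 counts over the THZ1 libraries. IFI6, an interferon-induced membrane protein, rose from a mean of 0.755 to 8.13 CPM, IFIT3, an RNA-binding antiviral protein, from 1.47 to 3.89 CPM, and ISG15, another ubiquitin-like modifier, from 2.14 to 5.43 CPM. OAS1 and OAS3, sensors of double-stranded RNA in the same list, fell by 0.91 and 1.16 on the log2 scale.

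In the antigen presentation pathway, PSMB9, an immunoproteasome subunit, was at 3.12, 3.27 and 3.47 CPM with THZ1 and 21.2, 18.4 and 21.3 CPM with the combination, a log2 fold change of 2.62 (SE 0.13; edgeR adjusted p = 9.24e-14). NLRC5, the activator of class I genes, was at 0.275, 0.998 and 0.178 CPM and 2.91, 1.97 and 2.41 CPM, and HLA-F at 2.2, 2.45 and 3.03 and 11.9, 13.4 and 11.1 CPM. TAPBP, the loading factor tapasin, rose from a mean of 121 to 424 CPM, TAP1, a peptide transporter subunit, from 30.1 to 94.8 CPM, and B2M, the invariant light chain, from 197 to 447 CPM. None of these genes overlapped between the groups, which held for 73.2% of all genes tested. The rise was smaller than without THZ1 for 6 of the 14 class I genes and larger for none, with differences of -0.45 for B2M, -0.43 for TAPBP and -0.64 for PSMB9. Of 5 tested class II genes 3 rose, among them CTSS, the protease cathepsin S, from a mean of 1.81 to 23.0 CPM.

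Targets of NF-kB rose as well, but the rise under trametinib was smaller with THZ1 than without it. Of 20 tested cytokine, chemokine and feedback genes, 16 rose and 1 fell with THZ1, at a median log2 fold change of 1.203. Without THZ1 all 20 rose, at a median of 2.53, where 36.8% of all genes rose. The difference was negative for all 20 and passed the threshold for 18, against 14.8% of all genes, with a median of -1.31. THZ1 alone raised 11 of the 20 and lowered 1, with a median of 0.67, against 25.0% and 21.5% of all genes. That change shares libraries with the difference and is not independent of it.

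CCL2, a monocyte chemokine, was at 3.21, 1.45 and 2.40 CPM with THZ1 and 19.1, 14.4 and 18.1 CPM with the combination, a log2 fold change of 2.87 (SE 0.24; edgeR adjusted p = 1.25e-09). Without THZ1 its mean went from 0.321 CPM in DMSO to 25.6 CPM with trametinib, and the difference between the responses was -3.41 (SE 0.61; edgeR adjusted p = 2.21e-04). THZ1 alone had raised it (2.84 on the log2 scale), so the smaller rise started from a higher level. IL32, a proinflammatory cytokine, was at 25.1, 27.8 and 29.2 CPM with THZ1 and 174, 191 and 208 CPM with the combination, with means of 10.1 and 337 CPM without THZ1 and a difference of -2.26 (SE 0.11; edgeR adjusted p = 8.57e-12). ICAM1, an adhesion molecule, was at 22.6, 24.1 and 21.0 CPM with THZ1 and 106, 107 and 116 CPM with the combination, and TNFAIP3, the NF-kB inhibitor A20, at 23.6, 12.8 and 11.5 and 67.4, 59.3 and 57.4 CPM. For IL32, ICAM1 and TNFAIP3 every combination library was above every THZ1 library, and the log2 fold changes of 2.80, 2.28 and 1.95 compare with 5.06, 3.62 and 2.97 without THZ1. CXCL8, the neutrophil chemokine interleukin 8, had means of 16.1 CPM with THZ1 and 15.3 CPM with the combination and was not called, whereas it rose from 42.1 to 98.8 CPM without THZ1. CCL20, at means of 12.3 and 12.7 CPM, was likewise not called with THZ1, and CSF1 was the member that fell (-0.24).

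STAT3 and its pathway rose in part. Of 20 tested genes for STAT3 signalling and acute-phase proteins, 11 rose and 4 fell, against 35.0% and 36.0% of all genes. The median of this list was 0.39, against 0.66 without THZ1. STAT3 itself rose from a mean of 119 to 384 CPM and JAK1, its upstream kinase, from 206 to 675 CPM. SERPINA3, a protease inhibitor of the acute phase, was at 1.74, 2.63 and 1.96 CPM with THZ1 and 57.3, 60.4 and 66.8 CPM with the combination, a log2 fold change of 4.86 (SE 0.12; edgeR adjusted p = 2.37e-18). SERPINA1, which encodes alpha-1-antitrypsin, was at 14.6, 17.4 and 15.6 and 109.9, 126 and 126 CPM. Its response was larger with THZ1, by 1.67 (SE 0.09; edgeR adjusted p = 4.38e-11), and its mean with both drugs (121 CPM) lay between that of DMSO (73.4) and of trametinib alone (175). FGA, which encodes a fibrinogen chain, fell with THZ1 (-0.26) and rose without it (1.25).

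**Figure D3:**
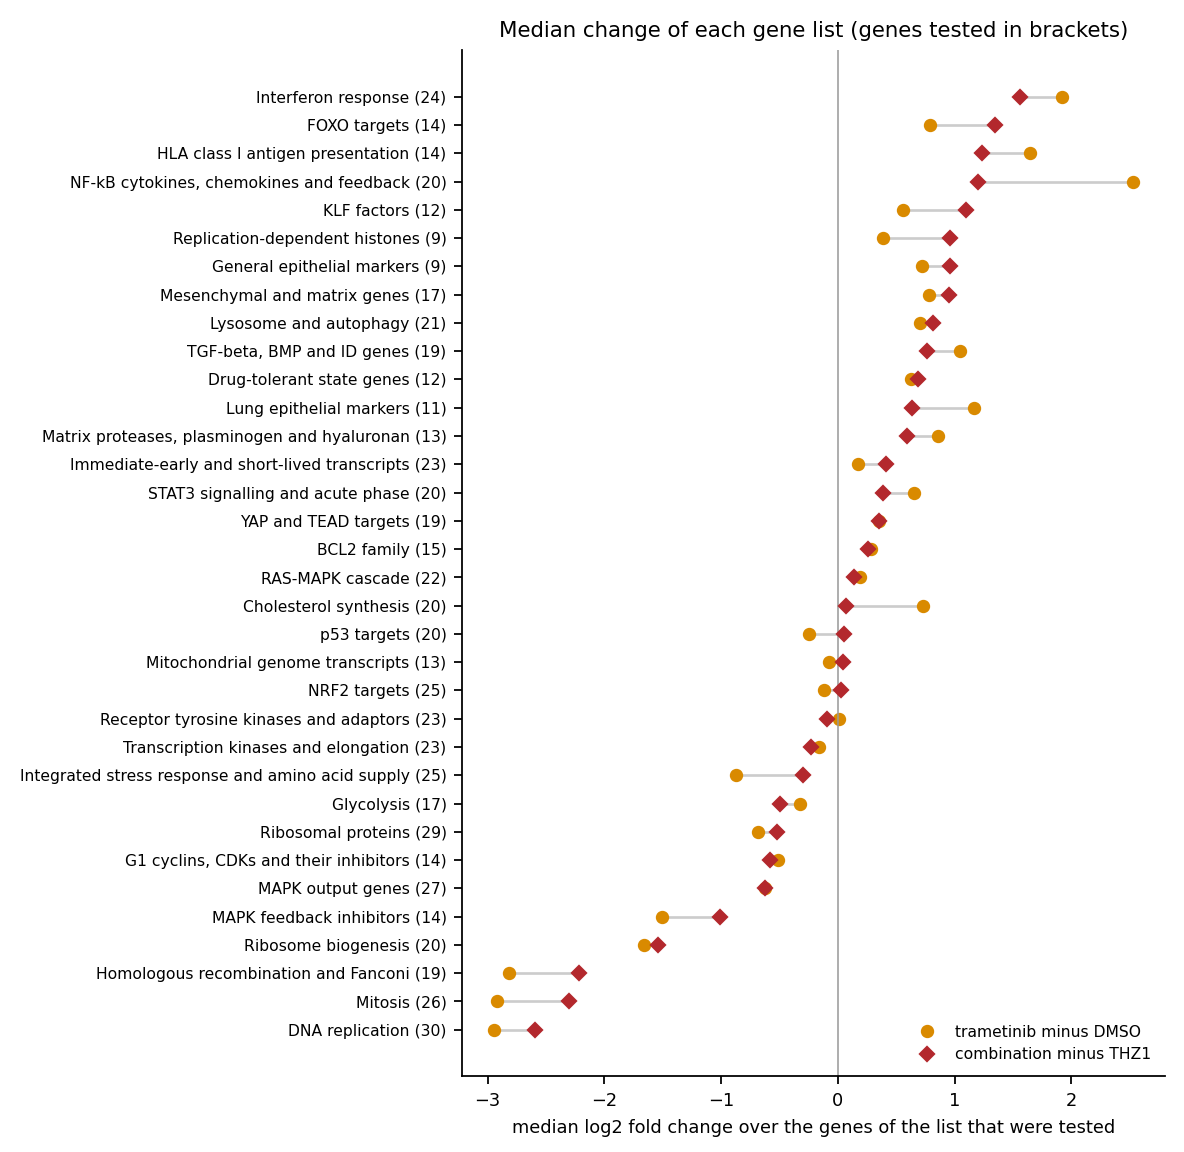
Median log2 fold change under trametinib without THZ1 and with THZ1 for the 34 gene lists with at least 9 tested genes. The lists of DNA replication, mitosis and homologous recombination lie lowest in both, and the NF-kB list has a median of 2.53 without THZ1 and 1.203 with it.

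Genes of the integrated stress response and amino acid supply, which are targets of the factor ATF4, were mostly lowered by either drug alone, and the difference between the responses to trametinib with and without THZ1 was mostly positive. THZ1 alone lowered 22 of 25 and raised 2, with a median log2 fold change of -1.23. Over all genes it lowered 21.5% and raised 25.0%, and trametinib alone lowered 37.4% and raised 36.8%. Trametinib alone lowered 18 and raised 6, with a median of -0.87, and trametinib added to THZ1 lowered 12 and raised 9, with a median of -0.30. The difference was called in the positive direction for 18 genes and in the negative for none, against 15.3% and 14.8% of all genes. The change under THZ1 alone shares libraries with this difference and is not independent of it.

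PHGDH and PSAT1, which encode the first enzymes of serine synthesis, still fell. PHGDH was at 71.3, 65.9 and 66.0 CPM with THZ1 and 20.6, 20.1 and 18.9 CPM with the combination, a log2 fold change of -1.77 (SE 0.08; edgeR adjusted p = 7.26e-14), with means of 310.3 in DMSO and 10.3 with trametinib alone. PSAT1 was at 107, 108 and 111 CPM and 22.7, 19.0 and 18.2 CPM, a log2 fold change of -2.44 (SE 0.07; edgeR adjusted p = 1.98e-17), with means of 499.8 and 10.8 CPM without THZ1. In both genes the order of the means was DMSO, THZ1, combination, trametinib, and the responses differed by 3.15 and 3.08. PSPH, the third enzyme of the same pathway, rose from a mean of 45.6 to 144 CPM. CBS, an enzyme of cysteine synthesis, was at 5.87, 5.99 and 8.37 CPM with THZ1 and 4.82, 5.53 and 3.79 CPM with the combination, against means of 87.9 in DMSO and 4.76 with trametinib alone. Its difference was 3.68 (SE 0.22; edgeR adjusted p = 1.14e-10), and its small fall with THZ1 (log2 fold change -0.52) lost its call without THZ1 library 4 (adjusted p = 0.0912) or combination library 3 (0.0527). ASNS, the asparagine synthetase, had means of 339, 20.2, 48.8 and 20.1 CPM in DMSO, trametinib, THZ1 and the combination. TRIB3, a pseudokinase, had means of 609.6, 165, 107 and 87.4 CPM in the same order.

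Other genes with a positive difference rose from the level with THZ1. PCK2, the mitochondrial PEP carboxykinase, was at 31.9, 30.5 and 32.0 CPM with THZ1 and 56.0, 55.5 and 58.7 CPM with the combination, a log2 fold change of 0.85 (SE 0.07; edgeR adjusted p = 5.87e-10). Trametinib alone lowered it from a mean of 213 to 52.2 CPM, and the mean with the combination was 56.7 CPM. NUPR1, a stress-induced chromatin protein, was at 1.10, 1.09 and 1.42 CPM with THZ1 and 18.9, 17.5 and 15.3 CPM with the combination, and its means without THZ1 were 9.39 in DMSO and 16.5 with trametinib. ADM2, a secreted peptide of the adrenomedullin family, was at 0.825, 0.454 and 0.979 CPM and 2.0, 1.40 and 1.46 CPM, far below its mean of 15.9 CPM in DMSO.

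Cholesterol synthesis genes showed the opposite pattern. Trametinib alone raised 16 of 20 and lowered 2, with a median log2 fold change of 0.73, against 36.8% and 37.4% of all genes. THZ1 alone raised 15 and lowered 2, with a median of 0.52, against 25.0% and 21.5% of all genes. Trametinib added to THZ1 raised 7 and lowered 9, with a median of 0.07, against 35.0% and 36.0% of all genes. The difference was called in the negative direction for 17 and in the positive for none, against 14.8% and 15.3% of all genes. As it shares libraries with THZ1 alone against DMSO, the 2 are not independent. ACAT2, an acetyl-CoA acetyltransferase, was at 53.8, 53.9 and 56.5 CPM with THZ1 and 29.7, 32.3 and 33.1 CPM with the combination (log2 fold change -0.79), with means of 37.2 and 35.7 CPM without THZ1. Upper-quartile scaling, which moved the median of all genes to 0.129, turned the counts for this list to 11 up and 6 down.

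Of 17 glycolytic genes, 10 fell and 3 rose with THZ1, with a median of -0.50 against -0.32 without it. LDHA, lactate dehydrogenase A, was at 1906, 1968 and 1906 CPM with THZ1 and 882, 879 and 923 CPM with the combination, a log2 fold change of -1.11 (SE 0.03; edgeR adjusted p = 8.77e-17), and the fall was larger than without THZ1 by -0.79 (SE 0.05; edgeR adjusted p = 1.93e-10). SLC16A3, the lactate exporter MCT4, was at 77.6, 76.4 and 81.8 CPM and 27.1, 26.9 and 23.9 CPM (log2 fold change -1.60), and PKM, pyruvate kinase, fell from a mean of 3511 to 1980.0 CPM. PFKFB4, a regulator of glycolytic flux outside this list, was at 10.8, 8.71 and 8.63 CPM and 12.7, 13.1 and 9.99 CPM, against means of 2.31 in DMSO and 16.3 with trametinib alone.

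Transcripts of FOXO targets and KLF factors, which THZ1 alone had lowered, rose when trametinib was added. THZ1 alone lowered 10 of 14 tested FOXO targets and 11 of 12 KLF factors, against 21.5% of all genes. This fall and the rise with trametinib are read from the same THZ1 libraries, so they are not independent of each other. Over all genes, trametinib added to THZ1 raised 35.0% and lowered 36.0%. Trametinib added to THZ1 raised 10 of the 14 and lowered 1, with a median of 1.35 against 0.79 without THZ1, and raised 9 of the 12 KLF factors and lowered 1, with a median of 1.10 against 0.56. The difference was called in the positive direction for 4 FOXO targets and 5 KLF factors and in the negative for none of either. Over all genes it was positive for 15.3% and negative for 14.8%.

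KLHL24, a substrate adaptor of a ubiquitin ligase, was at 2.57, 2.72 and 3.83 CPM with THZ1 and 14.9, 26.8 and 27.0 CPM with the combination, a log2 fold change of 2.91 (SE 0.21; edgeR adjusted p = 1.23e-10). Combination library 1 was the lowest of its group and still above every THZ1 library. CCNG2, a cyclin of resting cells, was at 4.86, 6.44 and 7.39 CPM and 15.1, 24.2 and 26.4 CPM, and FOXO3 rose from a mean of 12.3 to 34.8 CPM. KLF2, a zinc-finger factor best known from quiescent cells, was at 17.3, 9.80 and 10.1 CPM with THZ1 and 60.2, 58.2 and 54.3 CPM with the combination, a log2 fold change of 2.22 (SE 0.17; edgeR adjusted p = 3.51e-10), against 1.16 without THZ1. KLF9 was at 3.67, 2.72 and 3.47 CPM with THZ1 and 11.6, 9.27 and 11.1 CPM with the combination (log2 fold change 1.69), whereas its means without THZ1 were 9.05 and 8.23 CPM and its response differed by 1.83 (SE 0.24; edgeR adjusted p = 6.72e-06). KLF7 rose from a mean of 19.4 to 85.3 CPM, and KLF16 was the factor that fell (-1.17).

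**Figure D4:**
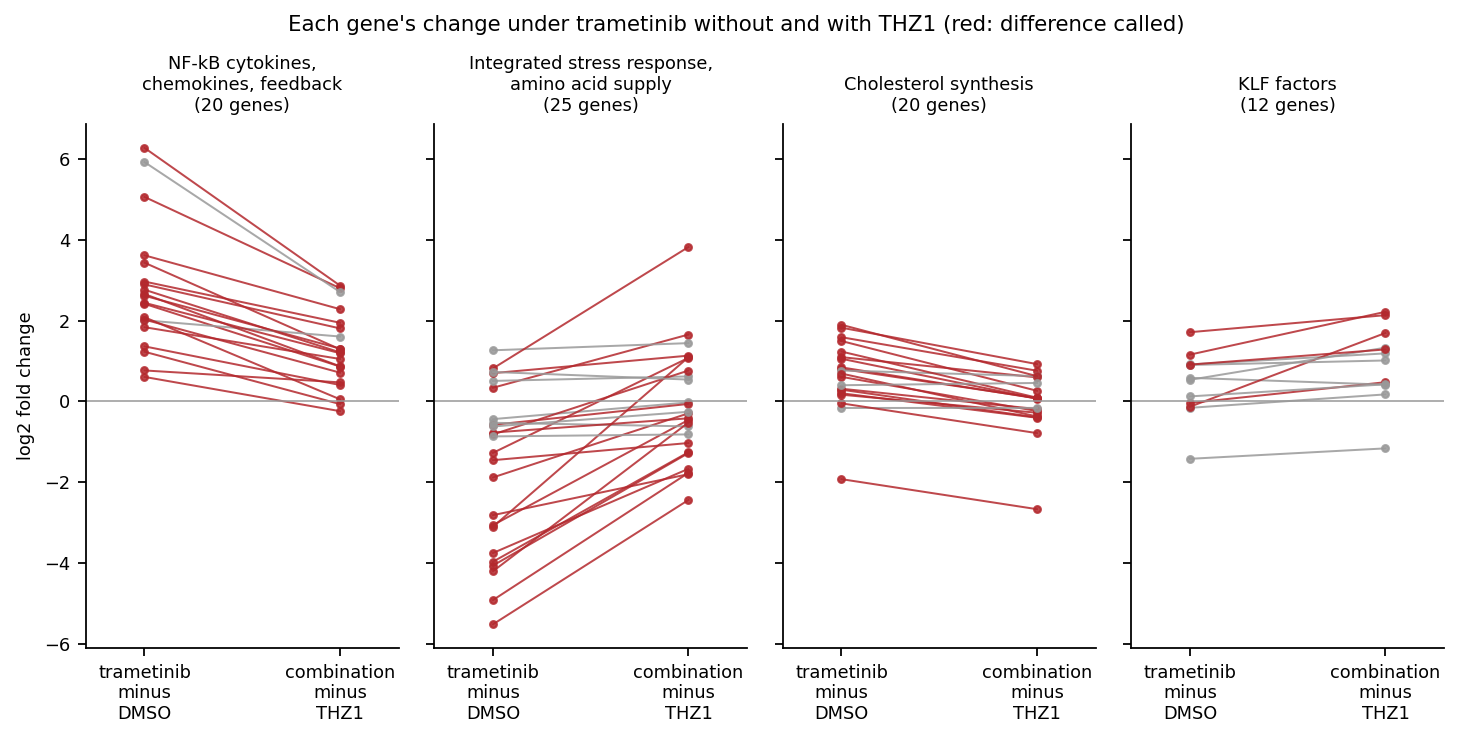
Log2 fold change under trametinib of each tested gene of the NF-kB (20 genes), integrated stress response (25), cholesterol synthesis (20) and KLF (12) lists, drawn from the value without THZ1 to the value with THZ1, in red where the difference was called. The difference was called downward for 18 NF-kB and 17 cholesterol genes, and upward for 18 stress response genes and 5 KLF factors.

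Of 15 tested BCL2 family genes, which control the mitochondrial route of apoptosis, 8 rose and 4 fell, against 35.0% and 36.0% of all genes. Among the proapoptotic BH3-only members, BMF, BIK, BCL2L11, BBC3 and BID rose and PMAIP1, which encodes NOXA, fell (-0.58). BMF was at 0.917, 0.363 and 0.534 CPM with THZ1 and 11.6, 9.74 and 8.35 CPM with the combination, a log2 fold change of 4.01 (SE 0.32; edgeR adjusted p = 5.56e-10). BIK was at 1.28, 1.09 and 0.890 CPM and 9.10, 8.62 and 8.87 CPM, a log2 fold change of 3.01 (SE 0.17; edgeR adjusted p = 2.18e-12). BCL2L11, which encodes BIM, a target of ERK and FOXO, was at 13.8, 16.3 and 13.2 CPM and 67.3, 78.9 and 82.0 CPM, a log2 fold change of 2.40 (SE 0.08; edgeR adjusted p = 5.15e-16). The groups did not overlap for any of these genes, which held for 73.2% of all genes tested. The rise was smaller with THZ1 than without it for BIK (-1.03) and larger for BCL2L11 (0.71) and the p53 target BBC3, which encodes PUMA (0.42). The antiapoptotic BCL2 was at 4.95, 5.45 and 5.25 CPM with THZ1 and 0.910, 1.31 and 1.12 CPM with the combination, and BCL2L1, which encodes BCL-XL, fell by 0.70 on the log2 scale, while MCL1 rose (0.46) from a level that THZ1 had lowered. Of 20 p53 targets, 10 rose and 7 fell, where 35.0% of all genes rose and 36.0% fell. The median of the p53 targets, 0.06, turned to -0.08 when only the compared libraries were fitted. TP53INP1, an autophagy and death regulator, rose from a mean of 5.15 to 33.8 CPM, and PLK3 fell from 12.5 to 4.24 CPM.

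Most of the largest rises were in genes that were barely detected with THZ1. KRT6B, a keratin whose family members are near-identical, had 1 count over the THZ1 libraries and 718 over the combination libraries, a 715-fold difference with a 95% exact interval of 128 to 28300. It was at 22.7, 19.6 and 22.3 CPM with the combination, and at 0 in DMSO against a mean of 28.0 CPM with trametinib alone, at least 324-fold. AZGP1, a secreted zinc-binding glycoprotein, had 1 and 236 counts (235-fold, interval 41.8 to 9330), the noncoding RNA LINC01133 had 2 and 345 (172-fold, 47.2 to 1420) and the pseudogene OR2I1P 3 and 307 (102-fold, 34.6 to 497). Their levels were at most 0.183 CPM in any THZ1 library and at least 5.09 CPM in every combination library. APOA1, the main protein of high-density lipoprotein, rests on more reads: it was at 6.14, 6.26 and 6.85 CPM with THZ1 and 317, 381 and 374 CPM with the combination, a log2 fold change of 5.8 (SE 0.10; edgeR adjusted p = 2.0e-20). CAPN5, a calcium-dependent protease, was at 6.78, 6.26 and 4.81 CPM and 302, 285 and 279 CPM, a log2 fold change of 5.60 (SE 0.08; edgeR adjusted p = 2.50e-21), larger than without THZ1 by 1.35.

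Other genes with large rises were likewise below 1 CPM before trametinib. MUC16, a membrane mucin that carries the CA125 antigen, was at 0.642, 0.454 and 0.0890 CPM with THZ1 and 23.6, 23.5 and 25.6 CPM with the combination. MUC12, another membrane mucin, was at 0.825, 0.363 and 0.356 and 22.4, 35.4 and 34.5 CPM, and combination library 1 was the lowest of its group. GSTA1, a glutathione transferase with a near-identical neighbour GSTA2, was at 0.275, 0.272 and 0.178 and 25.2, 24.2 and 26.3 CPM. The choline transporter SLC44A4 was at 0.275, 0.0908 and 0.178 and 17.9, 19.8 and 21.4 CPM, the villin-like gene VILL at 0.367, 0.272 and 0 and 11.8, 12 and 12.5, and GUCA2B, which encodes uroguanylin, at 0.367, 0 and 0 and 8.55, 7.77 and 7.23. LRRC31 was at 0, 0.0908 and 0.267 CPM with THZ1 and 7.46, 7.02 and 5.60 CPM with the combination, and its response differed by 3.40 (SE 0.55; edgeR adjusted p = 7.37e-05) from that without THZ1, where the mean went from 1.95 to 9.34 CPM. The log2 fold changes of MUC16, MUC12, GSTA1, SLC44A4, VILL, GUCA2B and LRRC31 lay between 5.65 and 6.67. Every combination library exceeded every THZ1 library for these genes, as the choice of genes required.

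MUC5B, a secreted gel-forming airway mucin, was at 2385, 2187 and 2484 CPM with THZ1 and 209, 199 and 193 CPM with the combination, a log2 fold change of -3.55 (SE 0.12; edgeR adjusted p = 6.33e-16). THZ1 alone had already lowered it from a mean of 7123 CPM, and with trametinib alone it was at 169.6 CPM, so that its response was smaller with THZ1 by 1.84 (SE 0.17; edgeR adjusted p = 5.13e-08). In the THZ1 libraries this gene made up most of the lung epithelial marker sum, which was 2620 to 2920 CPM in the THZ1 libraries and 685 to 720 CPM in the combination libraries. Of the 11 lung epithelial markers that could be tested, 6 rose and 3 fell: SFTPD, a surfactant protein gene, rose from 0.275, 0.0908 and 0.178 CPM to 3.37, 4.31 and 4.13 CPM and MUC1, a membrane mucin, from 2.29, 0.998 and 2.76 to 21.5, 27.4 and 27.0 CPM.

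ACOX2, an enzyme of peroxisomal bile acid synthesis, was at 18.3, 18.4 and 16.6 CPM with THZ1 and 0.364, 0 and 0.603 CPM with the combination, a log2 fold change of -5.70 (SE 0.24; edgeR adjusted p = 1.19e-14). MYEOV, a gene first found in myeloma, was at 107, 129 and 123 and 3.09, 2.34 and 2.84 CPM, a log2 fold change of -5.43 (SE 0.11; edgeR adjusted p = 2.44e-19). THZ1 had raised it from a mean of 59.6 CPM in DMSO, and trametinib alone left 0.436 CPM. DOK7, an adaptor of the receptor MuSK, was at 19.7, 15.1 and 13.4 and 0.637, 0.936 and 0.344 CPM, and SEMA6B, a semaphorin, at 73.2, 70.2 and 63.4 and 3.73, 2.06 and 2.67 CPM. GGT5 was at 6.33, 7.08 and 6.85 and 0.546, 0.0936 and 0.172 CPM, IL11, a cytokine of the IL-6 family, at 16.4, 15.1 and 14.9 and 0.455, 1.22 and 1.29 CPM, and NT5E, the ecto-enzyme CD73, at 11.7, 9.80 and 10.1 and 1.00, 0.843 and 0.603 CPM. The groups did not overlap for any of these genes, as the choice of genes required, with log2 fold changes between -4.64 and -3.68 for DOK7, SEMA6B, GGT5, IL11 and NT5E.

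**Figure D5:**
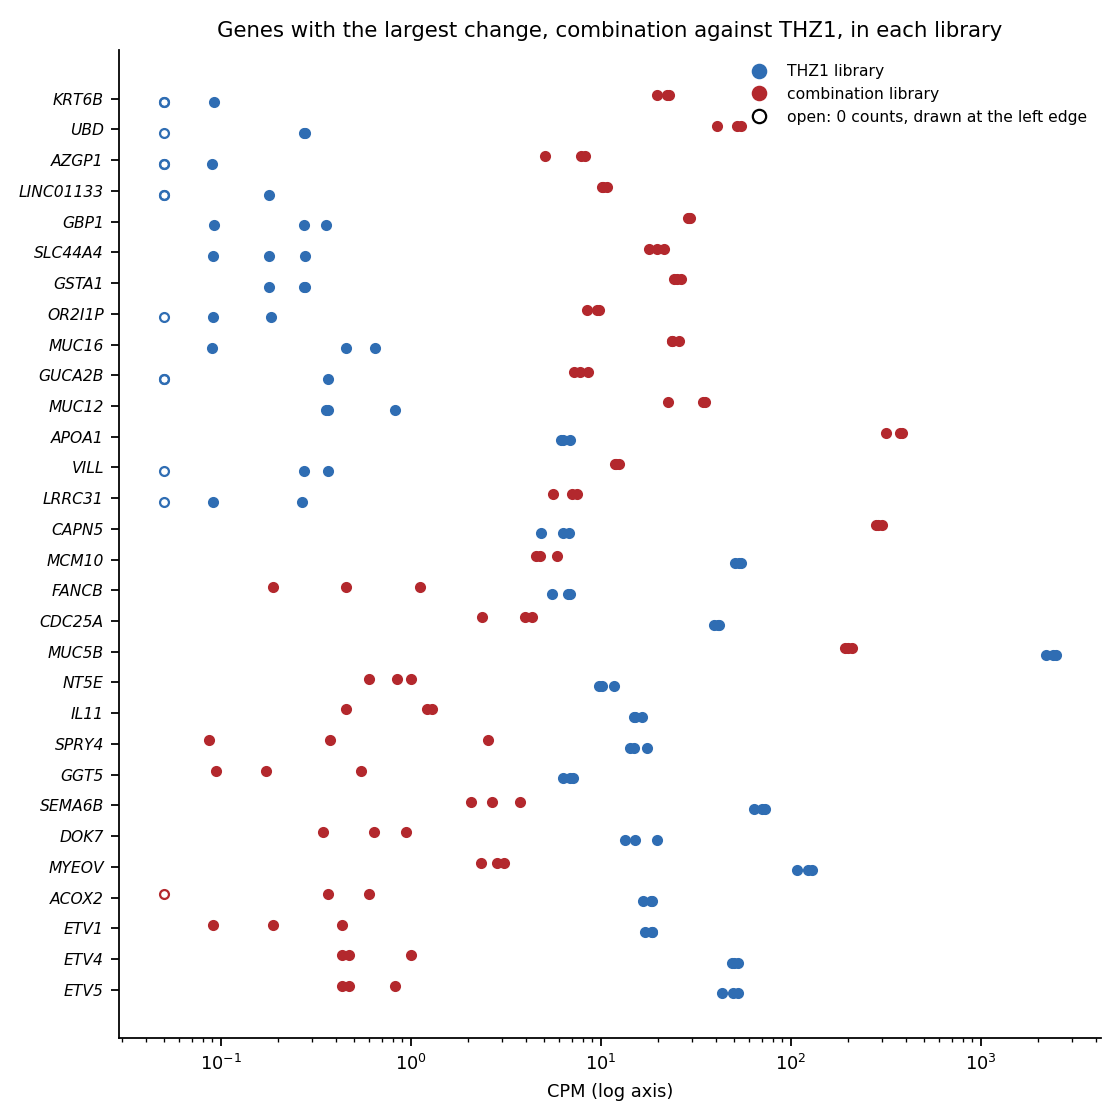
Level in CPM (log axis) in each THZ1 and combination library of the 15 genes with the largest rise and the 15 with the largest fall, open symbols for 0 counts. The groups do not overlap for any gene, which the choice of genes required, and THZ1 levels of the raised genes other than APOA1 and CAPN5 lie below 1 CPM.

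The most abundant genes raised at least 2-fold, by CPM not scaled to length, were FLNA, ALDH1A1, ACTN4, GPRC5A and HSPG2, and the most abundant lowered ones besides MUC5B were LDHA, HSP90AA1, TUBA1B and HSP90AB1. ALDH1A1, an aldehyde dehydrogenase often used as a marker of drug-tolerant cells, was at 1678, 1759 and 1704 CPM with THZ1 and 6158, 5979 and 6299 CPM with the combination, a log2 fold change of 1.84 (SE 0.03; edgeR adjusted p = 1.54e-20) against 1.74 without THZ1. The actin cross-linkers FLNA and ACTN4 rose from means of 3655 to 8212 CPM and of 1619 to 3694 CPM. GPRC5A, a lung-enriched receptor-like protein, rose from 548 to 1858 CPM and HSPG2, the basement membrane protein perlecan, from 591 to 1724 CPM. HSP90AA1, the inducible HSP90 chaperone, was at 2587, 2365 and 2395 CPM with THZ1 and 1126, 932 and 955 CPM with the combination, a log2 fold change of -1.29 (SE 0.06; edgeR adjusted p = 2.33e-14). THZ1 alone had raised it from a mean of 1295 CPM, and the fall was larger than without THZ1, by -0.66. HSP90AB1 fell from a mean of 2100.5 to 913 CPM and TUBA1B, a tubulin, from 2592 to 789 CPM.

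Of 23 tested receptor tyrosine kinases and adaptors, 10 rose and 10 fell, where 35.0% of all genes rose and 36.0% fell, with a median of -0.10 that turned to 0.02 under upper-quartile scaling. ERBB3, which pairs with EGFR and HER2, was at 26.9, 27.6 and 29.9 CPM with THZ1 and 146, 149 and 155 CPM with the combination, a log2 fold change of 2.41 (SE 0.05; edgeR adjusted p = 1.86e-19) against 1.02 without THZ1, from a level that THZ1 had lowered from 101 CPM. ERBB2 rose from a mean of 101 to 263 CPM and ROS1 from 0.452 to 10.8 CPM. AXL, a receptor linked to drug resistance, fell from 73.7, 77.6 and 71.9 CPM to 17.6, 17.5 and 15.6 CPM (log2 fold change -2.14). FGFR1 fell with THZ1 (-0.87) and rose slightly without it (0.15).

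More epithelial and matrix genes rose than fell. Of 9 tested general epithelial markers, 7 rose and 1 fell, with a median of 0.96 (0.58 over 10 tested without combination library 1): CDH1, which encodes E-cadherin, was at 311, 337 and 348 CPM with THZ1 and 1249.7, 1275 and 1268 CPM with the combination, and CLDN7, a claudin, at 17.0, 16.3 and 17.6 and 71.9, 72.1 and 66.7 CPM. Of 17 mesenchymal and matrix genes, 10 rose, 3 fell and 4 were not called, against 35.0% and 36.0% of all genes, with a median of 0.85 without SPARC, which was too low for a fold change. FN1, fibronectin, was at 50.8, 53 and 55.2 CPM and 221, 242 and 249.9 CPM, and its response was larger with THZ1 by 1.17 (SE 0.07; edgeR adjusted p = 8.66e-11). TAGLN, an actin-binding protein, was at 2.93, 2.45 and 2.94 and 25.4, 28.6 and 28.9 CPM, COL1A1 rose from a mean of 19.1 to 100.1 CPM, and the factor ZEB1 fell by 1.13 on the log2 scale. COL1A1 also made up most of the fibroblast and endothelial marker sum, 19.3 to 20.2 CPM with THZ1 and 95.8 to 112 CPM with the combination. Of the 8 markers of that list found in the table, only COL1A1 had a mean of at least 1 CPM in either group. The list's only other tested gene, LUM, a matrix proteoglycan, also rose, from a mean of 0.121 to 0.9 CPM. COL3A1 and CDH5 were at 0 in the THZ1 libraries and COL1A2 in the combination libraries, while each was above 0 in the other group. The part of these markers in the matrix gene results was not tested.

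Of 19 genes of the TGF-beta and BMP families, 14 rose and 4 fell, against 35.0% and 36.0% of all genes. The median of this list was 0.77, against 1.05 without THZ1. The difference was called downward for 10, against 14.8% of all genes. TGFB2 was at 25.2, 28.7 and 24.9 CPM with THZ1 and 139, 162 and 168 CPM with the combination, and BMP2 at 1.38, 1.27 and 0.623 and 8.37, 12.5 and 10.1 CPM. Of 19 YAP and TEAD targets, 12 rose and 7 fell, against 35.0% and 36.0% of all genes. CCDC80, a matrix protein, rose by 2.56 on the log2 scale and CCN2, a matricellular growth factor, fell by 1.40. Of 13 matrix protease genes, 5 rose and 3 fell, shares near or below those of all genes. Among them TIMP2, a metalloprotease inhibitor, rose from a mean of 48.2 to 163 CPM, and the hyaluronan receptor CD44 fell from 7.06 to 2.94 CPM.

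Of 21 lysosome and autophagy genes, 16 rose and 3 fell, against 35.0% and 36.0% of all genes. The median of this list was 0.81, against 0.71 without THZ1. GABARAPL1, an autophagosome protein, was at 52.3, 53.3 and 49.0 CPM with THZ1 and 176, 171 and 176 CPM with the combination, and the lysosomal sialidase NEU1 rose from a mean of 27.8 to 79.5 CPM, while the galactosidase GLA fell by 1.25 on the log2 scale. Of 12 genes linked to drug-tolerant states, 10 rose and 2 fell, among the risen the histone demethylase KDM6B (1.22) and ALDH1A3 (1.92). Of 25 NRF2 targets, which are constitutively high in this KEAP1-mutant line, 10 rose and 9 fell, with a median of 0.02, close to the 35.0% and 36.0% of all genes. HMOX1, haem oxygenase 1, rose from a mean of 94.7 to 193 CPM and OSGIN1 fell from 184 to 68.9 CPM. Of 13 mitochondrially encoded transcripts, 3 rose and 4 fell, none by 2-fold and with no difference called from the response without THZ1. Of 9 tested replication-dependent histone genes, which lack poly(A) tails and have near-identical copies, 6 rose and 2 fell, against 35.0% and 36.0% of all genes. Under upper-quartile scaling the NRF2 counts became 14 up and 7 down and the mitochondrial counts 6 up and 1 down.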

How the data were processed

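RNA-seq libraries of A549 cells were used, 15 in 5 groups of 3, grouped by their labels. The authors deposited expected counts per gene and library, made with Bowtie2 2.2.1 and RSEM 1.2.12 on hg19, from RNeasy micro kit RNA and NEBNext Ultra RNA kit libraries, per the submitters' processing notes and the labels' protocols. Which gene annotation was used is not stated there. RSEM divides reads shared by similar genes by estimate, so values of near-identical genes are uncertain. Of 53893 gene IDs, 37404 had a symbol, and IDs without one held 1.6% of the A549 counts.

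Expected counts were rounded and tested with edgeR 4.0.16 (R 4.3.3): TMM scaling, its low-count filter, and 1 quasi-likelihood fit over the 15 libraries, tested on simulated data first. Calls were made at p below 0.05 after Benjamini-Hochberg adjustment over 14810 genes. Each SE was computed back from the test, as the absolute log2 fold change over the square root of its F statistic. Where a group held few counts, as for GBP1, UBD and ETV1, this SE is below counting error alone. It then overstates the precision of the fold change. SDs are over 3 libraries. Folds resting on 1 to 3 counts are ratios of counts with exact 95% intervals, and a fold against 0 is a bound at 3 counts over the group.

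Libraries were assigned to groups by their labels alone, but which comparison to describe and the gene lists were chosen with earlier results of these data known, so a list's direction is not independent evidence. Genes were named by rule: the 15 largest changes in each direction with a mean of at least 5 CPM in the higher group and no overlap, the 10 largest differences in each direction, up to 4 per list with a mean of at least 2 CPM, the 5 most abundant genes changed at least 2-fold in each direction, and a fixed set of pathway genes. Other list members are named to account for their list and were chosen after their values were seen. Of 761 list entries in 40 lists, 10 were not found. Alternatives were other scalings (RLE, upper-quartile), DESeq2 1.42.0, other low-count filters, unrounded counts, a replicate block, a fit of the compared libraries alone and leaving out each library. A few genes that the naming rule takes in are not reported here.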

Additional observations from a re-analysis of the deposited data

Results flagged for a closer look

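The response to trametinib differed with and without THZ1 for the 20 genes picked by the size of that difference, tested as an interaction in edgeR's quasi-likelihood fit, where 30.0% of all genes tested showed a difference. The values are differences of log2 fold changes, with THZ1 minus without it. Positive differences were found for FUT1 (4.40), a fucosyltransferase, ADM2 (4.20), EGR2 (4.14), CBS (3.68), S100A9 (3.59), LRRC31 (3.40), PHGDH (3.15), PSAT1 (3.08), NUPR1 (3.01) and PCK2 (2.88). S100A9, a calcium-binding alarmin, was at 0.550, 0.817 and 2.05 CPM with THZ1 and 0.637, 1.40 and 0.775 CPM with the combination, and its means without THZ1 were 5.12 CPM in DMSO and 0.340 CPM with trametinib. FUT1 was at 0.183, 0.0908 and 0.267 CPM and 0, 0.0936 and 0.172 CPM, with 6 counts over the THZ1 libraries and 3 over the combination libraries, and its means without THZ1 were 5.36 and 0.123 CPM. Its call was lost without combination library 2 (adjusted p = 0.0580) or combination library 3 (0.239).

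Negative differences were found for PPBP (-6.53), CCL2 (-3.41), SERPINB7 (-3.17), CILP (-3.14), VTCN1 (-2.92), CALB2 (-2.73), UCN2 (-2.61), PFKFB4 (-2.48), RABGEF1 (-2.45) and IL32 (-2.26). PPBP, a platelet chemokine precursor, was at 0, 0.0908 and 0.0890 CPM with THZ1 and 0.637, 0.936 and 1.89 CPM with the combination, a 19.4-fold ratio with a 95% exact interval of 5.03 to 166. It was at 0 in DMSO and at a mean of 18.6 CPM with trametinib alone, a fold of at least 215. Its call was lost without THZ1 library 2 (adjusted p = 0.0751) or THZ1 library 4 (0.0754). VTCN1, the immune checkpoint ligand B7-H4, was at 0.458, 0.272 and 0.0890 CPM with THZ1 and 8.46, 12.5 and 11.9 CPM with the combination, and its call was lost without DMSO library 2 (0.0579) or 3 (0.0767) or without THZ1 library 1 (0.168) or 2 (0.0627). CALB2, which encodes calretinin, was at 6.33, 6.99 and 6.05 CPM with THZ1 and 1.09, 0.749 and 0.344 CPM with the combination, and at means of 1.91 and 1.42 CPM without THZ1. SERPINB7, a serpin of stratified epithelia, was at 0.367, 0.545 and 0.356 and 3.0, 4.21 and 3.53 CPM, CILP, a cartilage matrix protein, at 0.367, 0.545 and 0.445 and 1.91, 1.59 and 2.07 CPM, and UCN2, a peptide of the CRH family, at 5.41, 4.54 and 5.61 and 6.91, 6.56 and 6.46 CPM.

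RABGEF1, a RAB5 exchange factor, varied more within groups than between them. It was at 13.7, 4.17 and 16.4 CPM with THZ1 and 10.6, 1.87 and 14.5 CPM with the combination, with library 2 the lowest in each group. Its difference was not called by DESeq2 (adjusted p = 0.0629), and edgeR's call was lost without DMSO library 3 (0.0768) or 4 (0.0736), trametinib library 4 (0.110), or THZ1 library 1 (0.0653) or 4 (0.0915).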

How the results depend on the processing

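The count of genes called in the combination against THZ1 (10516) was 9842 with DESeq2, 10593 with upper-quartile scaling and 10410 with a replicate block. It ranged from 10115 to 10300 when a library was left out, and no gene called here was called in the opposite direction by RLE scaling, upper-quartile scaling or DESeq2. Upper-quartile scaling moved the median of all genes from 0.012 to 0.129 and the share of calls that were upward from 49.3% to 56.7%. The difference between the responses was called for 3574 genes with DESeq2, 4387 with the replicate block and 3872 to 4269 without a library.

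The share of trametinib-raised genes that also rose with THZ1 (87.3%) was 89.1% under upper-quartile scaling, 79.4% without a low-count filter, 84.9% with only the compared libraries fitted and 85.1% to 87.3% without a library. The share of lowered genes (90.3%) was 88.7% with DESeq2, 84.4% without a filter and 88.1% to 90.3% without a library. The cause of these moves was not tested. The median of the matrix protease list (0.596) turned to -0.276 with only the compared libraries and ranged from -0.154 (without combination library 1) to 0.629 when a library was left out. With MMP10 left out, which was too low for a fold, it was 0.240. The interferon median without THZ1 was 1.92 with CXCL10, at 0 counts in DMSO, set at its bound. Of 211 results for 191 named genes, 201 kept their direction and their side of the threshold under every alternative run.

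Replicate numbers were not used as pairs. In deviations from the group mean, the 2 same-numbered pairs of THZ1 and combination libraries correlated at 0.007 and 0.257. For DMSO and trametinib, the 3 such pairs lay at -0.091 to 0.093. Library 1 of the 7-day group correlated at 0.182 with combination library 1 and at 0.161 with THZ1 library 1. Combination library 1 correlated at -0.107 and -0.185 with THZ1 libraries 2 and 4. A differently numbered pair, DMSO library 4 and combination library 2, reached 0.175. In the 7-day group, library 1 was also the highest for EGR1 (127, 9.58 and 17.4 CPM) and DUSP6 (5.99, 1.68 and 0.835 CPM). It was not for SPRED2 (6.63, 5.71 and 8.02 CPM). An effect shared by the libraries numbered 1 was not tested. With 10279117 to 11203295 counts per compared library, changes of genes below 1 CPM rest on few counts.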
